A study of Mus musculus with 2 samples.

Results

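Dense clusters of distal open chromatin were examined in the left cerebral cortex of mice aged 10 days. The members were chosen by the deposited peak calls and their positions, which are measured values. A peak of replicate 1 that overlapped a peak of replicate 2 by at least 1 bp was called shared, and a shared autosomal peak was called distal when its midpoint lay more than 1 kb from every start site of GENCODE M21. Distal midpoints at most 5 kb apart were chained, and every chain of 5 or more peaks was kept. The rule gave 206 peaks in 34 clusters, of 31285 distal peaks and 50856 shared peaks in all. The other 31079 distal peaks, named outside peaks here, were 23453 lone peaks and 7626 peaks in chains of 2 to 4.

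The tissue came from 2 female B6CASTF1/J mice, offspring of a cross between C57BL/6J, a laboratory strain, and CAST/EiJ, a strain of wild origin, and each gave 1 DNase-seq library. They formed 1 group, with no treatment, second tissue or second age, and both carried the strain's single donor identifier. Because the libraries form 1 group and regions are not replicates of a condition, no test between groups of peaks was run, and shares and medians are given beside those of the outside peaks. Errors are SD over the 2 libraries, or 95% Wilson intervals that cover counting error only. The tissue held many cell types, so more cells with an open region and more opening per cell cannot be told apart.

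DNase I cuts DNA that is not covered by nucleosomes, and a peak marks a stretch of frequent cuts. Many distal peaks in brain are enhancers, which act on genes from a distance, and groups of close enhancers often lie near genes that set a cell's identity. Other open regions away from protein-coding genes belong to genes of RNA polymerase III, such as those for transfer RNAs (tRNAs). A tRNA gene is short, and its promoter lies inside the transcribed sequence as an A box and a B box, which the factor TFIIIC binds. A footprint is a short stretch inside a peak with fewer cuts than its surroundings, as a bound protein leaves.

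Markers of the tissue and of other cell types were checked for open starts. Both libraries had a peak at most 500 bp from a start for 13 of 14 pan-neuronal genes, 13 of 18 cortical excitatory neuron genes, 7 of 16 interneuron genes and 7 of 12 astrocyte genes, against 56.3% of autosomal protein-coding genes. The pan-neuronal and excitatory shares lay above that of all genes, the astrocyte share near it and the interneuron share below it. Those without such a peak among the excitatory genes included Slc17a7, Tbr1, Fezf2 and Bcl11b. The count was 4 of 12 for oligodendrocyte lineage genes, 3 of 12 for microglia genes, 2 of 12 for endothelial and mural genes, 0 of 12 for muscle genes and 1 of 12 for liver genes. Signal, 1 deposited value per peak on the authors' scale, came in whole multiples of a step in each library, 0.00692 in replicate 1 and 0.00758 in replicate 2. The median cluster peak stood at 144 and 158 steps and the lowest at 18 and 14. The sources used here do not give the meaning of a step or the sequencing depth.

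The results below turn on a few kinds of cluster: those built on tRNA genes, those led by 1 strong peak, those of high mean signal, those of weak peaks in a nearly continuous open stretch, wide clusters, and clusters at neural genes. The sequences that follow show peaks of tRNA clusters, the strongest peaks of clusters led by 1 peak or of high mean signal, and, for contrast, the strongest peak of the weak Apba2 cluster. Each is the plus strand of mm10, as RefSeq gives it in GRCm38.p6, over the peak as called in replicate 1. In the first set, 1 peak of each tRNA cluster, capitals mark the RefSeq tRNA gene; the peaks of Shf, Hfe2 and Dhx37 show the gene on the reverse strand, and the peak of Trim27 ends inside its gene.
Shf peak at chr2:122377361-122377620: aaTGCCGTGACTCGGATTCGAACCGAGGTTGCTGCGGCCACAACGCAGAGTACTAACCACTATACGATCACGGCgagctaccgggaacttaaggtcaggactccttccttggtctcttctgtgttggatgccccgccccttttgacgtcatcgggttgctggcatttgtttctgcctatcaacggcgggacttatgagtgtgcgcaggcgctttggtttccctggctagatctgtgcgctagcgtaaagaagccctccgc
Hfe2 peak at chr3:96500321-96500580: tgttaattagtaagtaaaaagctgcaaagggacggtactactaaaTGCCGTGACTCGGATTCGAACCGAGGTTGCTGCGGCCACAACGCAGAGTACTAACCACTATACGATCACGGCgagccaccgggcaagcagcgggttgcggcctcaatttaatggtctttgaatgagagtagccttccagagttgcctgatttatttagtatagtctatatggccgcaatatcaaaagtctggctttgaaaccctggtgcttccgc
Dhx37 peak at chr5:125408921-125409140: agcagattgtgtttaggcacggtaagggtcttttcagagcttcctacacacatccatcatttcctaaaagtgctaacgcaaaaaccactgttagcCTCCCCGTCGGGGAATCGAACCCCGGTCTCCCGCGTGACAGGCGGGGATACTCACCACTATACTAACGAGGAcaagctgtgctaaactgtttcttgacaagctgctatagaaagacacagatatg
Ctc1 peak at chr11:69041681-69041940: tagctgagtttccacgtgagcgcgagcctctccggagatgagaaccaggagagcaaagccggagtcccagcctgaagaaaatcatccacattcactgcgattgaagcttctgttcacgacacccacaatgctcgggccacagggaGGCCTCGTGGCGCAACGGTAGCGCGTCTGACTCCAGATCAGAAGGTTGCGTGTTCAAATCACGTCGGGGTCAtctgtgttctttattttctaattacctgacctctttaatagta
Trim27 peak at chr13:21169901-21170055: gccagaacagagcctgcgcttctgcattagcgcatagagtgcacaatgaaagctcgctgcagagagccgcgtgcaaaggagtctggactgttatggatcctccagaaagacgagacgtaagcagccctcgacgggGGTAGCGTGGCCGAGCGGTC
Olfr1423 peak at chr19:12012201-12012500: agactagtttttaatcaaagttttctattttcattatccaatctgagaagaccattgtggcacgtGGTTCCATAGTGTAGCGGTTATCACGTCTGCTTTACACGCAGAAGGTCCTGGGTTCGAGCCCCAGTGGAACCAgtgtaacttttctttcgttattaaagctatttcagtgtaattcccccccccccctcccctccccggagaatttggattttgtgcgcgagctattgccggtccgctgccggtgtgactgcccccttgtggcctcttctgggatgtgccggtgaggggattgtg
The capitals of Shf and Hfe2 are the same 72 bases, a histidine tRNA gene that has 7 other identical copies among the autosomal tRNA genes of RefSeq. In the second set, capitals mark bases that lay in footprints of both libraries.
Tmem161b peak at chr13:84347981-84348260: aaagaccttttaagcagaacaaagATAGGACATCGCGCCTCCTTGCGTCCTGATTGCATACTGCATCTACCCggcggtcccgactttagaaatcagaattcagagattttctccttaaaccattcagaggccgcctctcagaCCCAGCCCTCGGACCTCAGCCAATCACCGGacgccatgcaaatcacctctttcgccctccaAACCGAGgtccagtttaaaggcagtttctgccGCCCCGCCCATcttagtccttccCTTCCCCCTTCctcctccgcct
Ezh2 peak at chr6:47650761-47651000: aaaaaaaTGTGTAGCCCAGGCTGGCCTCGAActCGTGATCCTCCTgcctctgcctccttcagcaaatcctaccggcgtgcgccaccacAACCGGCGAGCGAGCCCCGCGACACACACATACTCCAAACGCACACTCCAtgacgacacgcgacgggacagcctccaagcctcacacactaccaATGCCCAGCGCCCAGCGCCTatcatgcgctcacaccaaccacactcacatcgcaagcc
Mef2c peak at chr13:83715061-83715300: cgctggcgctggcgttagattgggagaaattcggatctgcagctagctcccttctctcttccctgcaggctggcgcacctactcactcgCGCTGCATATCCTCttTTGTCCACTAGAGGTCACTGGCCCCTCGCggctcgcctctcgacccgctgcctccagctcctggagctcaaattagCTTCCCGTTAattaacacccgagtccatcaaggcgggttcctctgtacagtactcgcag
Sfi1 peak at chr11:3123821-3124100: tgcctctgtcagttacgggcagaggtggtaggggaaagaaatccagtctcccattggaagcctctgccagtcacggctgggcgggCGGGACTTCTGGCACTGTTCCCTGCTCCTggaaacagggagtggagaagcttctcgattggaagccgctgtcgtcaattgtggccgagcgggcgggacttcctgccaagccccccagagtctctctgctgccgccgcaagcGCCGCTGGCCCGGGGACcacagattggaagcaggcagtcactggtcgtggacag
Apba2 peak at chr7:64505021-64505240: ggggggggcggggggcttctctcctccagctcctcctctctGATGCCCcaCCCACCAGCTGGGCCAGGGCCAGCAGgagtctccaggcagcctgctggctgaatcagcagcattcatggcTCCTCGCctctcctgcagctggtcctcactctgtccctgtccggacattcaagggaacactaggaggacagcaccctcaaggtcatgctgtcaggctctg
The peak of Tmem161b held 5 stretches of shared footprint, that of Ezh2 held 4, those of Mef2c and Apba2 held 3 each, and that of Sfi1 held 2.

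The clusters were short and compact. Their spans ran from 1380 to 17580 bp, with a median of 6394.5 bp, and summed to 224165 bp. The median distance between neighbouring midpoints was 760 bp, where that over all distal peaks was 39992.5 bp; both follow from the rule. Chains of 5 peaks made up 21 of the 34 clusters, and the others held 6 peaks in 5 clusters, 7, 8 and 9 peaks in 2 clusters each, and 10 and 13 peaks in 1 cluster each. Just outside the threshold lay 92 chains of 4 with 368 peaks. The widest internal distance was 4991 bp and the nearest outside peak lay 5770 bp from a cluster, and 4 of 67 distances to the next outside peak were at most 10 kb. Clusters lay on 17 of the 19 autosomes, with 4 each on chromosomes 6, 11 and 13. Each cluster is named here by the protein-coding gene with the nearest start, which is a label of position and no claim of function.

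Every member overlapped a peak of both libraries by the rule, so the spans held 5 or more peaks of replicate 1 in 34 of 34 clusters and of replicate 2 in 31, and 91.2% met this in each library. When clusters were built from replicate 2 alone, a cluster was found at 28 of the 34 places. Replicate 1 alone gave all 34, which the rule fixes because the members are peaks of replicate 1. Llgl1, Sox11, Gadd45g, Gabpa and Plxna4 were among those that replicate 2 alone did not give. Among the 206 peaks, log2 signal in the 2 libraries had Pearson's r = 0.960 and Spearman's rho = 0.950. These values describe peaks that share libraries and scale. Over outside peaks they were 0.907 and 0.891. Log2 signal was also more spread in cluster peaks, and the part of that in these values was not tested. Replicate 2 was higher in 162 of 206 peaks (78.6%, 72.5 to 83.7), close to 80.1% outside. The median log2 ratio of replicate 2 to replicate 1 was 0.27 in cluster peaks and 0.29 outside. By cluster the highest median log2 ratios were 0.59 at Shf, 0.59 at Osbpl3 and 0.47 at Dhx37. The median lay below 0 in 3 clusters, among them Pramef17 at -0.28 and Lclat1 at -0.04.

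Cluster peaks were somewhat stronger than outside peaks at the median and far more spread. The median signal was 0.996 in replicate 1 and 1.20 in replicate 2, against 0.809 and 0.993 outside, a log2 difference of 0.29 ± 0.02 (SD, n = 2), or 1.22-fold. In the strongest 10% of distal peaks lay 47 cluster peaks in replicate 1 (22.8%) and 46 in replicate 2 (22.3%), where the shares of outside peaks were 9.86% and 9.92%. In the weakest 10% lay 15.5% and 16.0% of cluster peaks, against 9.71% and 10.0% outside. The SD of log2 signal was 1.11 and 1.21 in clusters, and 0.71 and 0.82 outside. The median difference did not hold for every choice of cluster: it was -0.32 with chains of 7 or more peaks, 0.01 with a chaining distance of 2.5 kb, 0.07 without the tRNA clusters, and 0.03 when clusters were built from replicate 1 alone.

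**Figure D1:**
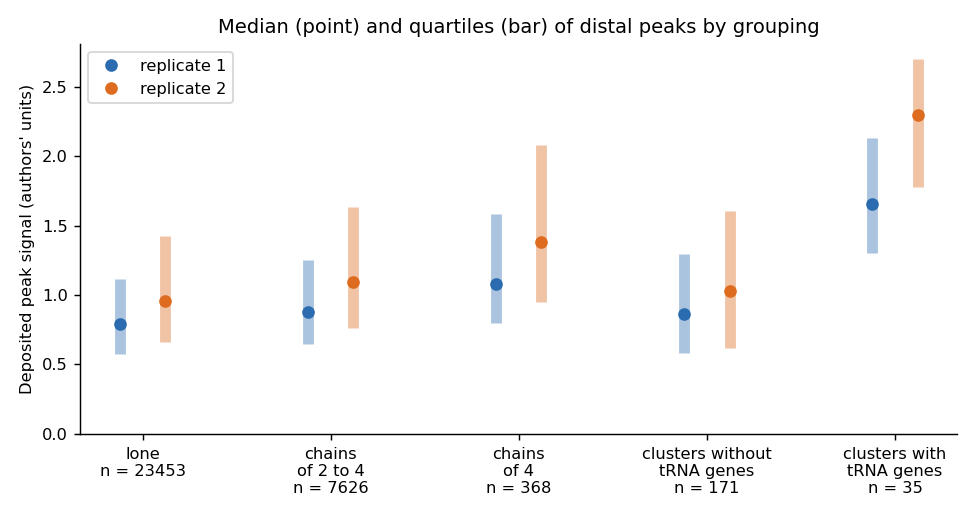
Deposited peak signal (authors' units, linear axis from 0) of distal peaks by how they are grouped, with replicate 1 in blue and replicate 2 in orange; points are medians and bars run from the lower to the upper quartile. Clusters with tRNA genes have medians of 1.65 and 2.30, while clusters without them, at 0.865 and 1.03, lie below the chains of 4, at 1.08 and 1.38. Some chains of 4 hold tRNA genes and were not taken out.

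The plot of signal by grouping shows how the excess at the median differed between kinds of cluster. The 35 peaks of tRNA clusters exceeded outside peaks by a log2 difference of 1.12 ± 0.13 (SD, n = 2), or 2.17-fold. The 171 peaks of the other 28 clusters did so by 0.07 ± 0.03 (SD, n = 2). These 28 include Apba2, Il3ra and Llgl1, the clusters of lowest mean signal. Without those 3, the remaining 178 cluster peaks, tRNA clusters included, had log2 differences of 0.47 in replicate 1 and 0.38 in replicate 2. The 3 were picked for their low signal, so a higher value follows from the choice. The log2 difference was -0.05 ± 0.01 for lone peaks, 0.45 ± 0.04 for chains of 4 and 0.35 ± 0.12 for chains of 5 (SD, n = 2). The step from chains of 4 to chains of 5 differed between the libraries. It went from 0.42 to 0.43 in replicate 1 and from 0.47 to 0.27 in replicate 2. Within a cluster the SD of log2 signal was 0.71 and 0.78, and between clusters' means it was 0.83 and 0.91. The strongest peak of a cluster exceeded its weakest by a median of 2.57 times in replicate 1 and 2.86 times in replicate 2, and by 19.0 and 19.8 times at Ezh2.

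**Figure D2:**
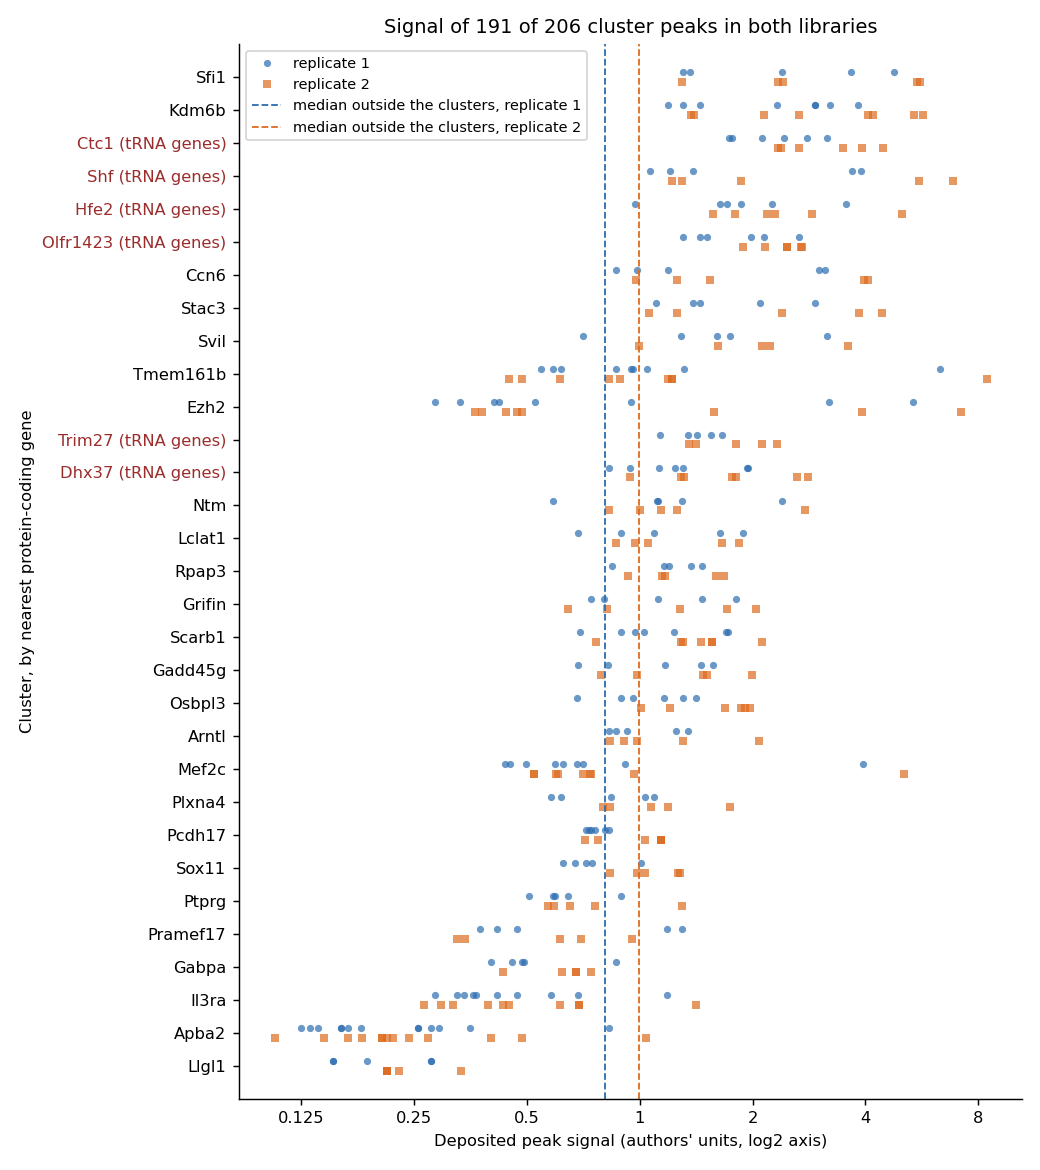
Signal of 191 of the 206 cluster peaks (authors' units, log2 axis), in 31 of the 34 clusters, 1 row per cluster in order of mean signal in the library where that mean is lower; circles are replicate 1, squares replicate 2, and dashed lines the medians of outside peaks. Clusters with tRNA genes (red labels) lie right of the lines except for 1 Dhx37 peak in replicate 2, and Apba2 and Llgl1 lie almost wholly left of them.

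Transfer RNA genes sat in 6 clusters. Of the 206 peaks, 26 overlapped a RefSeq tRNA gene (12.6%, 8.76 to 17.9), while 0.357% of outside peaks did (111 of 31079). The 6 clusters were Shf at chr2:122375561-122381300, Hfe2 at chr3:96497701-96503349, Dhx37 at chr5:125404161-125412200, Ctc1 at chr11:69035961-69041940, Trim27 at chr13:21167541-21173292 and Olfr1423 at chr19:12005901-12012500. Their spans held 34 tRNA genes, of which 26 were overlapped by a cluster peak (76.5%); over all autosomes 187 of 386 tRNA genes (48.4%) lay in a shared peak. The peaks were chosen for lying close together, so these shares are a description. Identical genes share reads, and 28 of the 34 have an identical copy among the autosomal tRNA genes; the sources used here do not say where the authors' alignment placed such reads.

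Histidine was the sole amino acid served by the Shf cluster, with 3 tRNA genes overlapped by 3 peaks. Their signals along the cluster were 3.69, 3.90 and 1.20 in replicate 1 and 5.55, 6.86 and 1.86 in replicate 2, and the 2 peaks without a tRNA gene stood at 1.07 and 1.39, and at 1.22 and 1.30. The first 2 tRNA peaks were the higher in both libraries. The first of these peaks starts at 122375561, while its gene runs from 122375494 to 122375565, so most of that gene lies outside the peak. Shf encodes an adaptor protein with an SH2 domain, and its start lay 9269 bp from the middle of the cluster. The Hfe2 cluster held 5 genes, for asparagine, lysine, histidine, glycine and glutamate, each in a peak of its own. Signals of these peaks were 1.87, 1.64, 3.54, 2.25 and 1.71 in replicate 1 and 2.30, 1.80, 5.00, 2.88 and 2.18 in replicate 2. The histidine gene had the highest peak in both libraries, and the 1 peak without a tRNA gene, at 0.969 and 1.57, had the lowest. Hfe2 encodes hemojuvelin, a regulator of iron balance.

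The 7 genes of the Ctc1 cluster each served another amino acid, namely aspartate, glycine, isoleucine, proline, serine, threonine and tryptophan. Of these, 5 lay in a cluster peak, with signals of 1.73 to 2.79 in replicate 1 and 2.34 to 4.46 in replicate 2, and the tryptophan gene was the highest of the 5 in both. A peak without a tRNA gene, at 3.17 and 3.92, was the strongest of the cluster in replicate 1. Ctc1 encodes a protein of telomere maintenance. The Dhx37 cluster held 5 genes for alanine, aspartate and phenylalanine, 4 of them in peaks, at 1.24 to 1.94 and 1.76 to 2.81. The Trim27 cluster held 7 genes for glutamine, leucine, lysine and methionine, 4 of them in peaks, at 1.13 to 1.65 and 1.36 to 2.32. The Olfr1423 cluster held 7 genes for arginine, leucine, lysine, phenylalanine and valine, 5 of them in peaks, at 1.45 to 2.66 and 1.89 to 2.71.

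Over all 26 tRNA peaks, signal ran from 1.13 to 3.90 with a median of 1.81 in replicate 1, and from 1.36 to 6.86 with a median of 2.36 in replicate 2. All 26 exceeded the median of outside peaks in both libraries. The other 9 peaks of these clusters had medians of 1.13 and 1.31, within ranges that overlap those of the tRNA peaks. The high level was not particular to clusters: the 111 outside peaks with a tRNA gene exceeded the median of all outside peaks by a log2 difference of 1.15 ± 0.07 (SD, n = 2), beside 1.21 ± 0.06 (SD, n = 2) for the 26 in clusters.

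Footprints at the tRNA genes covered more of a stretch inside the gene and of the sequence upstream than of the gene's first bases. The part that the placement of reads from identical gene copies has in these footprints was not tested. Of the 26 genes, 20 in replicate 1 and 23 in replicate 2 had a footprint within bases 46 to 65, counted from the gene's first base, and 23 in each library had one within the 50 bp upstream. Within the first 20 bases the counts were 12 and 11, and within the 50 bp after base 75 they were 14 and 11. As a share of bases, footprints covered 55.4% and 52.5% of bases 46 to 65, 47.8% and 39.9% of the upstream window, but 14.8% and 18.7% of the first 20 bases and 6.38% and 6.69% of the downstream window. The B box, searched as GTTCGANNC and chosen after the values were seen, matched 27 of the 34 genes on the gene's own strand. Over all autosomal tRNA genes it matched 235 of 386. In the 34 genes its matches started at a median of base 53, with a range of 52 to 86. Within 200 bp windows on the peak midpoints, searched on both strands, it matched 19 of 206 cluster peaks (9.22%) and 0.431% of outside peaks. In the printed peaks of Shf and Hfe2 it stands on the reverse strand, inside the capitals.

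**Figure D3:**
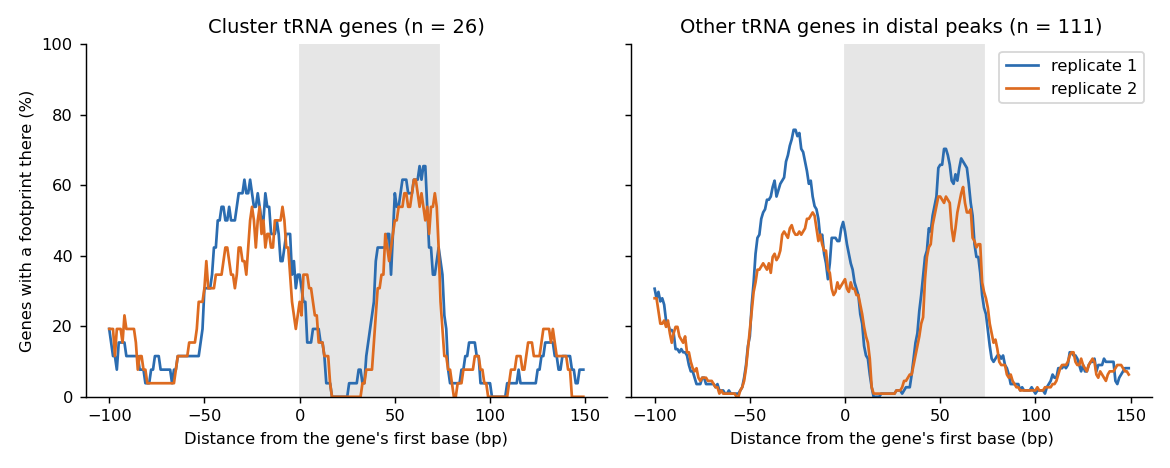
Share of tRNA genes (%, vertical axis) with a footprint at each distance from the gene's first base (bp, in the gene's direction), with replicate 1 in blue and replicate 2 in orange; the grey band is the median gene length of 73 bp. In the 26 cluster genes on the left and the 111 other genes on the right, 1 rise lies upstream and another inside the gene, with a dip between them; in cluster genes the highest share was 65.4% at 63 bp in replicate 1 and 61.5% at 60 bp in replicate 2.

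The 111 other tRNA genes had a footprint within bases 46 to 65 in 95 cases in replicate 1 and 93 in replicate 2, and upstream in 102 and 86. Their highest share was 75.7% at -27 bp in replicate 1 and 59.5% at 62 bp in replicate 2, so the highest place differed between the libraries. The profile of the cluster genes and that of the others, set side by side in the plot of footprints at tRNA genes, had the same order of windows by covered bases in replicate 1 and in replicate 2.

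A single strong peak among weak ones made up other clusters. The Tmem161b cluster at chr13:84344801-84350000 lay between genes, 96130 bp from the start of Tmem161b, which encodes a membrane protein, and nearest to the start of Gm26927. Its strongest peak, whose sequence is shown above, reached 6.34 in replicate 1 and 8.44 in replicate 2, the highest signal of all cluster peaks. The other 8 peaks ran from 0.547 to 1.31 and from 0.447 to 1.22, so the strongest was 4.82 and 6.91 times the next one. The strongest peak held the POU motif, whose factors include the neural class III family, and GGGCGG, the GC box of the SP and KLF zinc finger factors. In the printed sequence the POU match lies outside the shared footprints, and the GC box lies within them on the reverse strand.

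At the Mef2c cluster (chr13:83713576-83724420) the same shape was seen. It lay 66110 bp from the start of Mef2c, a transcription factor of excitatory neurons, and its nearest start of any gene was that of the long noncoding RNA C130071C03Rik. The strongest of 9 peaks stood at 3.94 and 5.09, and the others at 0.436 to 0.913 and 0.523 to 0.963, a step of 4.32 and 5.28 times to the next peak. The Ezh2 cluster (chr6:47646742-47653160) lay between genes, 54610 bp from the start of Ezh2, the histone H3K27 methyltransferase, and nearest to Gm25283. Of its 8 peaks, 2 stood out, at 5.38 and 3.20 in replicate 1 and 7.19 and 3.91 in replicate 2, while the other 6 ran from 0.284 to 0.948 and from 0.364 to 1.58. In these 3 clusters the strongest peak held 47.9%, 44.6% and 46.8% of the summed signal in replicate 1, against a median of 27.7% over the 34 clusters. RefSeq places a start within 1 kb of 6 of the 8 Ezh2 peaks, of 1 Mef2c peak and of no Tmem161b peak.

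The highest mean signal in the library where the mean was lower was that of Sfi1, at chr11:3123310-3132241, with means of 2.70 and 3.42. Sfi1 encodes a centrin-binding protein. The midpoint of the cluster lay in the pseudogene Pisd-ps1, with 3 of the 5 peaks in exon sequence and 2, the strongest among them, between genes of GENCODE M21. RefSeq places a start within 1 kb of these 2 peaks, at 41 bp from the midpoint of the strongest. The 5 peaks of Sfi1 ran 1.31, 4.78, 3.66, 2.39 and 1.36 in replicate 1 and 1.30, 5.59, 5.49, 2.41 and 2.34 in replicate 2. The strongest was 3.66 and 4.31 times the weakest. Of these 5 peaks, 4 had another place on the reference chromosomes with at least 95% identity over at least 80% of their length, including the printed one, so their reads could come from more than 1 place. Next came Kdm6b (chr11:69408601-69419180), named for the histone H3K27 demethylase, with 8 peaks and means of 2.39 and 3.37. Its signals ran 2.32, 1.30, 1.45, 2.93, 1.19, 2.93, 3.21 and 3.81 in replicate 1, and all 8 were higher in replicate 2, from 1.37 to 5.72. RefSeq places a start within 1 kb of all 8 Kdm6b peaks. The other 3 of the top 5 by mean were the tRNA clusters Ctc1 at 2.33 and 3.21, Shf at 2.25 and 3.36, and Hfe2 at 2.00 and 2.62.

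The cluster with the most peaks was among the weakest. The Apba2 cluster, at chr7:64503121-64511086 in an intron of Apba2, the gene of an adaptor that binds the amyloid precursor protein, held 13 peaks with means of 0.255 and 0.299. Of these, 12 ran from 0.125 to 0.353 in replicate 1 and from 0.106 to 0.485 in replicate 2, and 1 reached 0.830 and 1.04. That peak, the printed one, alone carried a footprint found in both libraries. The Il3ra cluster (chr14:14345117-14354410), in the gene of the interleukin 3 receptor alpha chain, held 10 peaks with means of 0.501 and 0.556. Here too 1 peak stood apart, at 1.18 and 1.41, and was the only one with a shared footprint. The Llgl1 cluster (chr11:60701566-60702945), in the gene of a cell polarity protein, was the narrowest, with 5 peaks in 1380 bp, means of 0.209 and 0.240, and no shared footprint.

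The low tail of the members came largely from these 3 clusters. They held 19 of the 32 cluster peaks that had no footprint in either library, with 28 peaks in all. Of the 100 weakest distal peaks, 12 in replicate 1 and 13 in replicate 2 were cluster peaks, from 2 clusters in each case, and 7 and 2 were weaker than every outside peak. A footprint found in both libraries was present in 65.0% of all cluster peaks (58.3 to 71.2) and 76.3% of outside peaks, or 77.3% of outside peaks of like width. Without these 3 clusters the share was 74.2% of 178 peaks. In tRNA clusters it was 88.6% of 35 peaks.

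Between the peaks of many clusters the chromatin was also open. The authors' lists of positions with a false discovery rate (FDR) of the cut rate under 0.05 covered 1.20% of the autosomes in replicate 1 and 1.37% in replicate 2. Within cluster spans they covered 25.8% and 28.5% of the sequence between peaks. In chains of 4 the same share was 15.1% and 15.5%, and in chains of 2 it was 10.3% and 12.1%. The clusters also had shorter gaps, by the rule, and the part of that in the shares was not tested.

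Individual clusters ranged from 4.28% (Rpap3) to 91.3% (Pcdh17) in replicate 1 and from 4.02% (Osbpl3) to 100% in replicate 2. Over 50% of the sequence between peaks was listed in both libraries in 8 clusters, among them Apba2, Arntl, Il3ra, Llgl1, Pcdh17, Ptprg and Tmem161b. Under 15% was listed in both in 8 others: Ccn6, Grifin, Lclat1, Ntm, Osbpl3, Rpap3, Scarb1 and Sfi1. These limits were set after the values were seen. The first 8 had a median span of 2581 bp, median signals of 0.592 and 0.633, and a shared footprint in 16 of 58 peaks (27.6%). The weak clusters Apba2, Il3ra and Llgl1 held 28 of these 58 peaks and 2 of the 16. The last 8 had a median span of 8926 bp, median signals of 1.19 and 1.46, and a shared footprint in 39 of 43 peaks (90.7%). The 6 tRNA clusters fell in neither set.

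**Figure D4:**
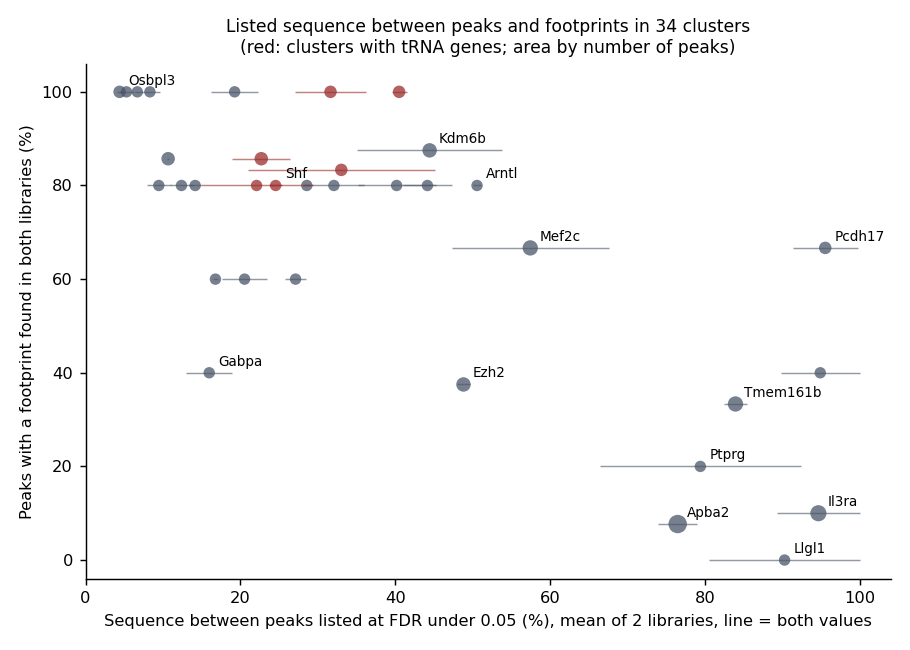
Each point is 1 of the 34 clusters, with the share of sequence between its peaks that the authors listed at FDR under 0.05 on the horizontal axis (%, mean of the libraries, with a line joining both values) and the share of its peaks with a footprint found in both libraries on the vertical axis (%); area grows with the number of peaks and red marks tRNA clusters. Osbpl3 and others with little listed sequence lie at the top left, and Llgl1, Apba2 and Il3ra at the lower right.

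The widest cluster was loosely spaced. The Osbpl3 cluster (chr6:50305301-50322880) ran over 17580 bp of an intron of Osbpl3, which encodes an oxysterol-binding protein. Its 6 peaks stood at 1.41, 0.892, 0.678, 0.962, 1.16 and 1.30 in replicate 1 and at 1.91, 1.21, 1.01, 1.69, 1.86 and 1.97 in replicate 2, each with a shared footprint. All 6 were higher in replicate 2. Scarb1 (chr5:125262681-125274118), named for a receptor of high-density lipoprotein, spanned 11438 bp, with 7 peaks at 0.692 to 1.72 and 0.766 to 2.12; Mef2c, at 10845 bp, was the third widest. Peaks covered 45.8% of the Mef2c span in replicate 1, against 5.79% at Osbpl3. Ptprg (chr14:11554777-11557022), in an intron of a receptor tyrosine phosphatase gene, was among the 3 narrowest, with 2246 bp and means of 0.645 and 0.773.

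Clusters at 2 genes of neural development, Sox11 and Pcdh17, which were picked after their values were seen, had no peak above 1.28. Sox11, a SoxC factor of immature neurons, held a cluster (chr12:27338233-27341473) with all 5 peaks in exon sequence, at 0.623 to 1.01 and 0.834 to 1.28. Of these peaks, 1 lay inside another. Pcdh17, a protocadherin, held 6 peaks in exon sequence (chr14:84444701-84447280) at 0.719 to 0.830 and 0.713 to 1.14, of which 5 lay within 1 kb of a RefSeq start. Here 3 of the peaks lay inside another one. When overlapping peaks were merged, 30 of the 34 clusters were found again, and Sox11, Pcdh17 and Ccn6 were among those that were not.

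Of 170 genes in 13 lists of cell types and functions, 165 of them autosomal, 2 were nearest to a cluster: Mef2c of the excitatory neuron list and Plxna4 of the adhesion and guidance list. All 34 clusters had different nearest coding genes, 34 of 20807 or 0.163%; 2 list genes are too few to set against that share. Plxna4, a plexin that receives semaphorin signals, also held the midpoint of its cluster (chr6:32583665-32591662). Of the 5 peaks there, 4 lay in introns and the last between genes. They stood at 0.616, 0.837, 1.09, 0.581 and 1.03 in replicate 1 and at 0.796, 0.834, 1.07, 1.19 and 1.74 in replicate 2. For 1 of these peaks, 60 bp long and 93.3% masked repeat, the search of the reference gave 142210 other near-identical alignments. Overlapping alignments were not merged, so the number of separate places is not known.

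The nearest genes were often open at their own starts. A promoter peak in both libraries was found for 27 of the 34 (79.4%), against 64.3% of 9944 genes nearest to outside peaks and 56.3% of all autosomal coding genes. Without the tRNA clusters it was 23 of 28. No interval was computed for these few genes, and the difference from 64.3% was not tested. Cluster peaks lay near start sites, at a median distance of 5096 bp against 14032 bp outside; 75.7% lay within 10 kb of one, against 40.3%. Introns held 30.1% of cluster peaks (24.2 to 36.7) and 46.4% of outside peaks, exons 12.6% and 5.13%, and sequence between genes 57.3% and 48.5%. Starts that RefSeq lists and GENCODE M21 does not lie within 1 kb of 30 cluster peaks in 9 clusters (14.6%), and of 4.25% of outside peaks.

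No cluster peak overlapped a VISTA enhancer of RefSeq, a set tested in transgenic embryos, where 0.608% of outside peaks did. Taken as 3 counts of 206 in place of a Wilson limit, a count of 0 allows a share of up to 1.46%. Masked repeat made up a mean of 11.4% of a cluster peak and 7.96% of an outside peak, and 4.37% of cluster peaks against 1.55% of outside peaks were over 50% repeat. Another place with at least 95% identity over at least 80% of the length was found for 11 cluster peaks in 4 clusters, namely 5 at Pramef17, 4 at Sfi1 and 1 each at Plxna4 and Ezh2. All 5 peaks of Pramef17 (chr4:143985281-143988420), a member of the PRAME family, were wholly masked repeat, and they gave the lowest ratio of replicate 2 to replicate 1.

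Short motifs were matched on both strands in the 200 bp around each midpoint. Of 24 motifs, 4 matched at least 20 cluster peaks, and 3 of these are given here. The GC box GGGCGG of SP and KLF factors matched 35 peaks in 18 clusters (17.0%, 12.5 to 22.7) and 7.42% of outside peaks, a ratio of 2.29. Cluster peaks also had more GC, with a median of 53% against 49.5%, and more CpG, 5 against 3 per window; the part of these in the motif's share was not tested. The SOX motif ACAATG matched 9.71% against 8.60% and the MEIS motif TGACAG 13.1% against 16.0%, and the outside share of each lay within the interval of its cluster share.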

How the data were processed

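DNase-seq libraries of 2 mice, 1 group, were analysed. According to the description files, the authors made the lists of peaks, footprints and cut-rate positions separately for each library, from its filtered mm10 alignments, without pooling. The callers and thresholds used are not given in the sources used here. Signal values are as the authors deposited them, 1 per peak on a scale set per library. The authors' footprint lists hold a p-value column of 0.01 throughout, and their cut-rate lists hold FDR values under 0.05. The smaller of the 2 deposited peak lists of each library was used.

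From these, overlaps of at least 1 bp, distances to GENCODE M21 starts and chains were computed in Python 3.11.15, and tRNA genes, VISTA enhancers, other starts and sequence were taken from RefSeq on GRCm38.p6, the assembly of mm10. Listed positions were intersected with bedtools 2.31.1, and near-identical copies were sought with blastn 2.17.0. A shared peak overlapping more than 1 peak of replicate 2 took the highest signal of them. The functions for overlap, distance and chaining were tested on simulated regions. The CAST/EiJ copy of these animals' genome differs from the reference, and parental alleles were not separated.

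No test was run, since there was 1 group. The members, gene lists and motifs were chosen with earlier results of these data known. Clusters named were the 5 with the most peaks, the 5 with the highest mean signal, the 3 at each end of the ratio between libraries and the 3 at each end of span; peaks named were the 5 strongest and the strongest of the clusters with most peaks; genes of the lists nearest to or holding a cluster were named, and motifs matched in at least 20 cluster peaks. Other clusters, among them those with tRNA genes and those set apart by listed sequence, were named after their values were seen. Some items that these rules name are not reported here.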

Additional observations from a re-analysis of the deposited data

How the results depend on the processing

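Which clusters exist depends on the rule, and the number of clusters, of their peaks and of nearest coding genes move with it. With a chaining distance of 2.5 kb there were 20 clusters with 127 peaks and 20 nearest genes, a signal difference of 0.013 (log2, cluster against outside peaks) and a shared footprint in 53.5% of peaks. With 10 kb there were 88 clusters, 499 peaks and 88 genes, a difference of 0.46, footprints in 75.6% and tRNA genes in 8.62% of peaks. With at least 4 peaks there were 126 clusters, 574 peaks and 125 genes, a difference of 0.40, footprints in 73.7%, tRNA genes in 7.67%, and 5 or more peaks in each library in 31.0% of spans. With at least 7 peaks there were 8 clusters, 71 peaks and 8 genes; the signal difference turned to -0.32, introns held 46.5% of peaks, footprints lay in 46.5%, tRNA genes in 5.63%, and 100% of spans held 5 or more peaks in each library. A start distance of 2 kb gave 22 clusters, 128 peaks and 22 genes, a difference of 0.31, a GC box ratio of 1.58 and tRNA genes in 20.3%. A reciprocal overlap of 50% gave 19 clusters, 113 peaks and 19 genes, a difference of 0.37, introns at 23.9% and 100% of spans. The larger peak lists gave 165 clusters, 953 peaks and 164 genes, a difference of 0.46 and tRNA genes in 5.35%. The stronger 50% of peaks gave 12 clusters, 69 peaks and 12 genes, a difference of 0.40, introns at 11.6%, footprints in 88.4%, tRNA genes in 37.7% and 100% of spans.

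Leaving out a replicate, which drops the need for sharing, gave 73 to 113 clusters, 477 to 720 peaks and 72 to 113 genes. The signal difference then ran from 0.027 without replicate 2 to 0.19 without replicate 1, introns from 31.4% to 38.3%, spans with 5 or more peaks in each library from 33.6% to 50.7%, tRNA genes from 6.53% to 7.97% and the GC box ratio from 1.87 to 2.12. The ratio between libraries and the shared footprint have no value there. The signal difference was 0.38 with starts of coding genes only. Chosen after seeing the data were 4 more: it was 0.35 with overlapping peaks merged, which left 30 clusters with 182 peaks, 0.25 with RefSeq starts also avoided, 0.075 without the tRNA clusters, and 0.28 without near-identical copies. On a rank scale the cluster median lay 14.3 percentage points higher. The coding genes whose body holds a cluster's midpoint numbered 9. With footprints compared at a reciprocal overlap of 50%, 56.3% of peaks had a shared one. The median log2 ratio between libraries stayed above 0 under every alternative that gave it, and was 0.13 in steps. The causes of these changes were not tested. No paired analysis was possible because the libraries form 1 group. Sequencing depth, which is unknown here, limits how many weak peaks a list can hold.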

Other observations

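Called peaks overlapped each other more often in clusters than outside. In replicate 1, 9 cluster peaks in 7 clusters overlapped a peak before them (4.37%), as did 98 outside peaks (0.315%). The spans held 237 peaks of replicate 1 and 243 of replicate 2 in the smaller lists, and 270 and 268 in the larger ones, so each library had some peaks there that the other lacked or that lay near a start. A peak at a start site lay within 5 kb of 12 clusters. The GC box was matched by peaks with median signals of 1.29 and 1.37, and the cluster peaks without it had medians of 0.962 and 1.14. The CTCF motif, whose factor shapes chromatin loops, was matched by 12 cluster peaks in 9 clusters (5.83%) and by 10.8% of outside peaks, and the NeuroD E-box CAGATGG by 16 in 12 clusters (7.77%) and by 13.6%. The POU motif ATGCAAAT went the other way, at 9 peaks in 5 clusters (4.37%) and 1.93% outside. These motifs matched fewer than 20 cluster peaks and were named after their values were seen.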
